A study of Mus musculus with 9 samples.

Results

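Replication-dependent histone genes make the H1, H2A, H2B, H3 and H4 proteins that package newly copied DNA, and they are described here across 5 RNA libraries of mouse macrophages. They were taken by symbol (names beginning Hist1h to Hist4h, or the newer H1f1 to H1f6, H2ac, H2bc, H3c and H4c). Of 47731 genes in the RNA table, 68 symbols matched, 3 of them pseudogenes, which left 65 genes: 6 for H1, 18 for H2A, 16 for H2B, 12 for H3 and 13 for H4. Hist1h2bh and Hist1h2bm, which the same pattern matches, were not analysed here.

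The libraries were 2 labelled Tet2 knockout (KO 1 and KO 2) and 3 labelled wild type (WT 1, WT 2 and WT 3). All came from macrophages at passage 0 treated with M-CSF, the growth factor on which macrophages depend. TET2 converts methylated cytosine in DNA into 5-hydroxymethylcytosine (5hmC), a mark profiled in 2 further libraries of each genotype. The labels give no strain, age, deletion design or origin of the replicates, so the p-values below speak to the scatter among these libraries alone, and that scatter may be technical. Values are counts per 1000000 counts in genes (CPM), without a length correction unless stated. KO 1 held 16053426 counts in genes and KO 2 25479447, against 17569441, 51355576 and 56394358 in WT 1, WT 2 and WT 3. Tet2 itself was at 232 and 126 CPM in KO 1 and KO 2, against 86.2, 144 and 41.6 CPM in WT 1, WT 2 and WT 3, so its gene level did not mark the labelled genotype, and KO and WT below mean the labels.

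Cells make these histones mainly in S phase, the part of the cell cycle in which DNA is copied. The mRNAs are unusual in ending in a stem-loop bound by SLBP in place of a poly(A) tail, and they are degraded when DNA synthesis stops. They are therefore seen poorly in poly(A)-selected libraries, whereas these libraries are of total RNA depleted of ribosomal RNA per the labels. Rn7sk, a small nuclear RNA without a poly(A) tail that regulates transcription elongation, was detected at 5246 and 6031 CPM in KO 1 and KO 2, against 8272, 7200 and 7942 CPM in WT 1, WT 2 and WT 3. Most members lie in a large cluster on chromosome 13 (51 genes), with 10 on chromosome 3, 2 on chromosome 11 and 1 on chromosome 6 (GRCm38). Hist1h2ap had no unique position.

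The start regions of 6 members are shown because these genes differ in how far they varied between libraries, as described below. Each window runs from 250 bases before to 50 after the RefSeq start, 5′ to 3′ on the gene's strand (RefSeq, GRCm38.p6). Capitals mark matches on either strand to the CCAAT box that many promoters carry. They also mark the TATAAA box, which places the start of transcription. The octamer known from H2B promoters is searched as ATTTGCAT. An element known from H1 promoters is searched as AAACACA. The windows are Hist1h1c (chr13:23738557-23738856, + strand), Hist1h1a (chr13:23763418-23763717, + strand), Hist3h2a (chr11:58954435-58954734, + strand), Hist1h2bb (chr13:23746484-23746783, + strand), Hist1h3e (chr13:23562336-23562635, - strand) and Hist1h4d (chr13:23581318-23581617, + strand).
Hist1h1c: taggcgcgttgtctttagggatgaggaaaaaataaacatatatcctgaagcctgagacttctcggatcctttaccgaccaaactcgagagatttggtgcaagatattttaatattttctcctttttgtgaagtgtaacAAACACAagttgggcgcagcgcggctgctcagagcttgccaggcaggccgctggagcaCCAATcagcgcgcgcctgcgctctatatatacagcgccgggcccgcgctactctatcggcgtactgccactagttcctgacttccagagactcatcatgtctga
Hist1h1a: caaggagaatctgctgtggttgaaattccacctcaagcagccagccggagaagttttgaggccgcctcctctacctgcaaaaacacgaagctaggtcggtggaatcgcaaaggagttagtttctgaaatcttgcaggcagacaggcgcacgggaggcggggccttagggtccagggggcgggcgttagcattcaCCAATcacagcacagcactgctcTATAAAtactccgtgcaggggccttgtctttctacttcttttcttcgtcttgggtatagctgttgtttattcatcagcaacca
Hist3h2a: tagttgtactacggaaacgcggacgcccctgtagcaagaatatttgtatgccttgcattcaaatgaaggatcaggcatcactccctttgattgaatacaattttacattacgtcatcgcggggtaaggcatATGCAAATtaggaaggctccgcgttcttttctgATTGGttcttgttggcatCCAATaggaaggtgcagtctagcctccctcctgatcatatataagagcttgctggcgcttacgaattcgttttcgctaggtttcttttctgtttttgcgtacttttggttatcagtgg
Hist1h2bb: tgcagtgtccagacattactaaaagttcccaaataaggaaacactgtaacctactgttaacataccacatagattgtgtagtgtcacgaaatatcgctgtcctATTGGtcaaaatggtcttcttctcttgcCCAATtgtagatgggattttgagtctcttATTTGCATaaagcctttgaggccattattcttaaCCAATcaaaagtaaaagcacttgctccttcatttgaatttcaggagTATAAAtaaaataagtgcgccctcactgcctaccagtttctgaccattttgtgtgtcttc
Hist1h3e: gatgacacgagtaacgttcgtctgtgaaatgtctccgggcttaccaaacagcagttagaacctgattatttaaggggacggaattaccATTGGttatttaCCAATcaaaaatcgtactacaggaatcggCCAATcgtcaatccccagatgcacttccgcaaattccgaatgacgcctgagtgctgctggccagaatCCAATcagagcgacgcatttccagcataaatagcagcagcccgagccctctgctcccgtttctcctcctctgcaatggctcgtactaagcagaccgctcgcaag
Hist1h4d: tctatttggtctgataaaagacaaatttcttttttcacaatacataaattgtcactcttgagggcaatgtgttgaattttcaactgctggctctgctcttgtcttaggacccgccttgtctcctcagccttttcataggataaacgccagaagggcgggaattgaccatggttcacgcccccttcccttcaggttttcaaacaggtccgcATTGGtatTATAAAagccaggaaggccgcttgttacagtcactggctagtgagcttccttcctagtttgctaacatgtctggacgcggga

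RefSeq windows were matched for 59 members, 60 windows in all. CCAAT was in 85.0% of the member windows, against 37.4% of all 32851 windows of the same length in the table. It was in each of the 6 H1, 17 H2A, 15 H2B and 10 H3 windows but in 25% of the H4 windows. TATAAA was in 58.3% of member windows, against 13.6% of all windows, and its matches stood at median positions from the start of -30 in H1, -32 in H2A, -94 in H2B, -89 in H3 and -79 in H4 windows. Single matches to it lay anywhere from -250 to 41. The octamer was in 41.2% of H2A and 40.0% of H2B windows and in no H1, H3 or H4 window, against 1.74% of all windows. Some H2A and H2B genes start so close together that their windows overlap. The same match can then count for both families, so their shares are not independent. AAACACA was in 5 of 6 H1 windows, at positions from -122 to -112, against 7.18% of all windows. Hist1h1a was the H1 gene without an exact match to it. These letter matches describe sequence and do not show that a factor binds.

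The summed level of the 65 members separated the libraries within each genotype. It was 987 and 4296 CPM in KO 1 and KO 2, against 804, 5525 and 6198 CPM in WT 1, WT 2 and WT 3. Thus 1 library of each genotype was low, and the genotypes overlapped. As a share of counts in genes, the members took 0.0987% and 0.430% in KO 1 and KO 2, against 0.0804%, 0.552% and 0.620% in WT 1, WT 2 and WT 3. In bulk RNA, fewer cells in S phase and less histone RNA per cell cannot be told apart.

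Mki67, which encodes the proliferation marker Ki-67 and accumulates from S phase to mitosis, was at 399 and 890 CPM in KO 1 and KO 2, against 39.0, 1259 and 697 CPM in WT 1, WT 2 and WT 3. WT 1 was again the lowest, but the other libraries were not ordered as by histone RNA: WT 2 was highest for Mki67 and WT 3 for the histones. The ratio of summed histone CPM to Mki67 CPM was 2.48 and 4.83 in KO 1 and KO 2, against 20.6, 4.39 and 8.90 in WT 1, WT 2 and WT 3. KO 1 therefore had the least histone RNA per unit of Mki67 and WT 1 the most. The excess in WT 1 was uneven between families. For H1 the ratio was 10.8 in WT 1 and 2.86 in WT 3, and for H4 4.31 and 2.29. In the same order it was 2.71 and 1.55 for H2B, 1.55 and 1.05 for H2A, and 1.30 and 1.14 for H3. The high WT 1 ratio was not particular to histones. For 28 S phase genes (replication factors and cyclins) the same ratio was 5.55 and 3.63 in KO 1 and KO 2, against 18.2, 2.62 and 4.45 in WT 1, WT 2 and WT 3. With 5 libraries no correlation across libraries was computed.

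**Figure D1:**
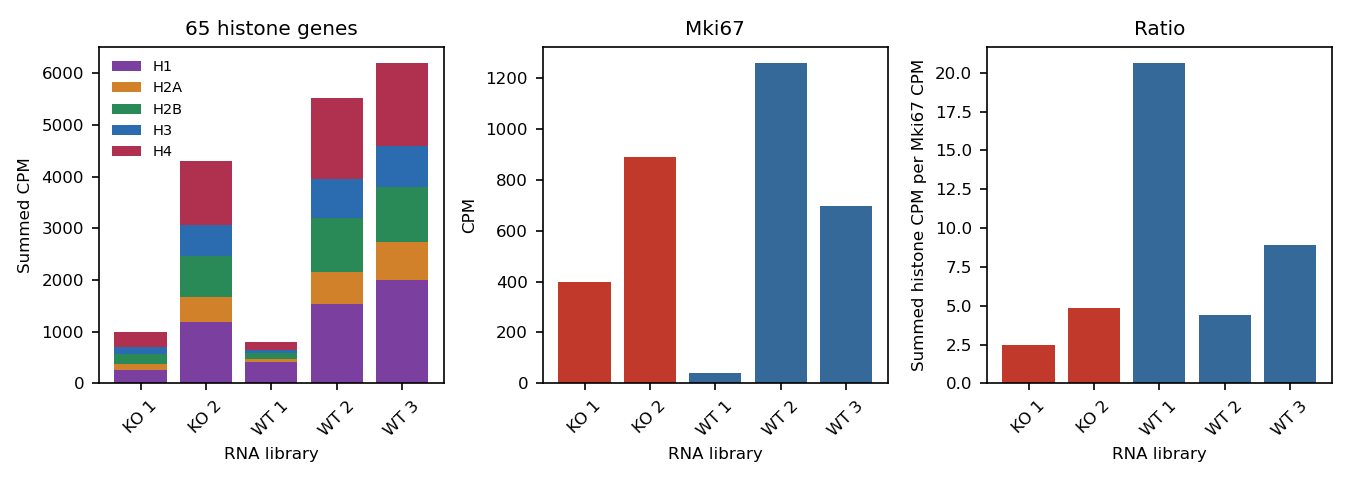
Summed CPM of the 65 histone genes by family (left), Mki67 CPM (middle) and the ratio of the histone sum to Mki67 (right), 1 bar per RNA library with KO in red and WT in blue where bars are not split by family. KO 1 and WT 1 have the lowest histone sums (987 and 804 CPM), while the ratio is lowest in KO 1 (2.48) and highest in WT 1 (20.6).

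Taken gene by gene, 55 members had a mean of at least 1 CPM. Of these, 45 had their lowest level in WT 1, 9 in KO 1 and 1 in KO 2. Over all 13157 genes with such a mean, WT 1 was lowest for 40.5% and KO 1 for 24.3%. The highest level was in WT 3 for 32 members (58.2%) and in WT 2 for 21 (38.2%), against 29.4% and 17.7% of all these genes. The order of the members by level was nonetheless similar between libraries: Spearman's rho over the 55 genes, given as a description, was 0.96 between KO 1 and KO 2, 0.97 between WT 2 and WT 3, and 0.75 to 0.84 between WT 1 and each of the other libraries. The points share gene lengths and the similarity of copies in all libraries.

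**Figure D2:**
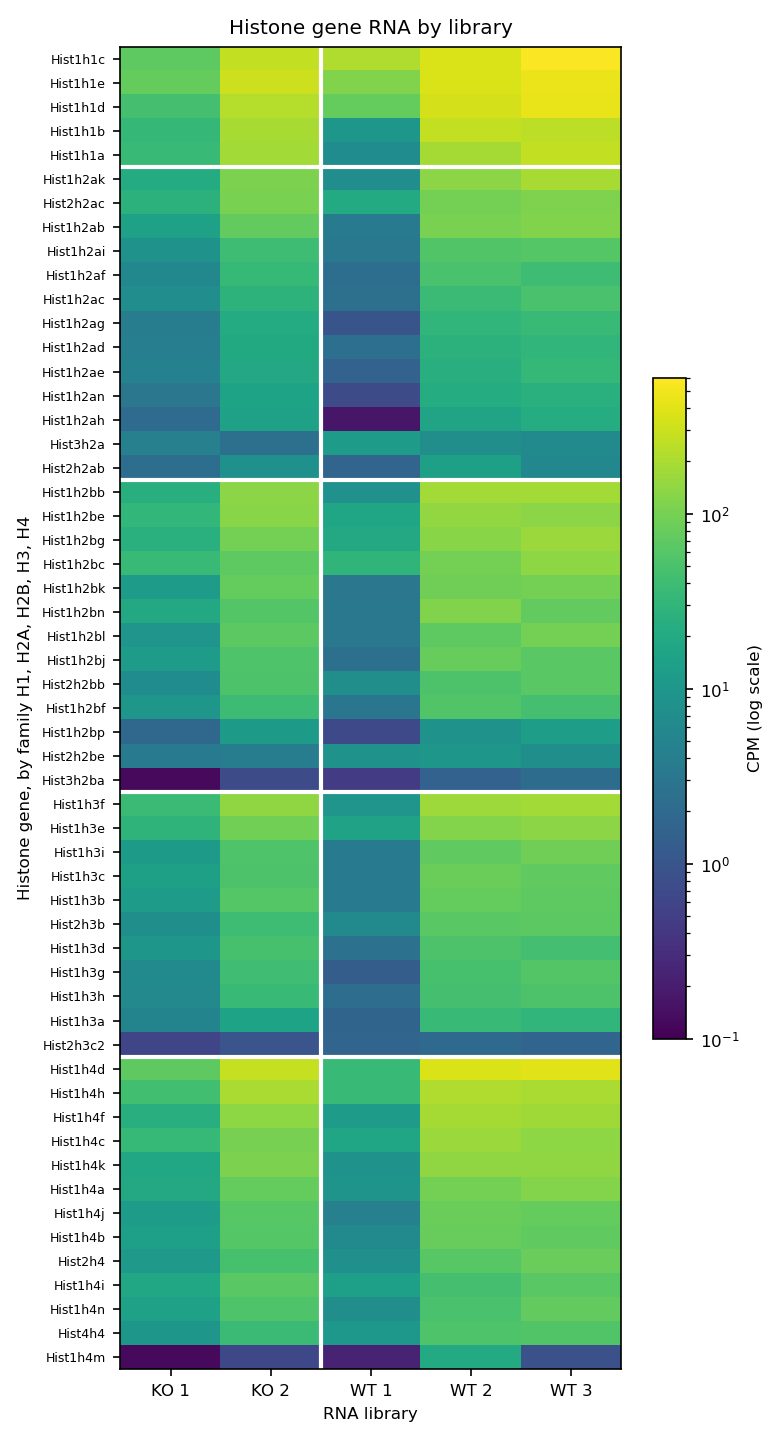
CPM on a log colour scale of the 55 histone genes whose mean reached 1 CPM (rows, grouped by family and ordered by mean) in the 5 RNA libraries (columns). The KO 1 and WT 1 columns are darker through most rows, with Hist3h2a, Hist2h2be and Hist2h3c2 as exceptions.

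The linker histones H1 sit on the DNA between nucleosomes, and their genes had the highest levels per length. Over the 6 H1 members the median was 54.4 and 270 CPM per kb in KO 1 and KO 2, against 56.4, 392.1 and 471 CPM per kb in WT 1, WT 2 and WT 3. H4 followed, at 41.5 and 162 CPM per kb in KO 1 and KO 2, against 20.7, 198 and 213 CPM per kb in WT 1, WT 2 and WT 3. H2A had the lowest family median in all 5 libraries, at 8.26 and 33.6 CPM per kb in KO 1 and KO 2, against 3.63, 45.6 and 57.7 CPM per kb in WT 1, WT 2 and WT 3. These lengths are RefSeq gene spans up to 1000 bp.

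Hist1h1c, the most abundant member, was at 69.2 and 271 CPM in KO 1 and KO 2, against 210, 365 and 566 CPM in WT 1, WT 2 and WT 3. Its low library was KO 1, and WT 1 stood far closer to WT 2 than for most members. Hist1h1e was at 76.7 and 313 CPM in KO 1 and KO 2, against 115, 365 and 461 CPM in WT 1, WT 2 and WT 3. Hist1h1d was at 46.3 and 230 CPM in KO 1 and KO 2, against 77.8, 345 and 449 CPM in WT 1, WT 2 and WT 3. Hist1h1e and Hist1h1d shared the pattern of Hist1h1c in having KO 1, not WT 1, as the lowest library. The other 2 detected H1 genes did not: Hist1h1a was at 36.5 and 179 CPM in KO 1 and KO 2, against 6.83, 186 and 271 CPM in WT 1, WT 2 and WT 3. Hist1h1b was at 32.8 and 194 CPM in KO 1 and KO 2, against 9.96, 270 and 248 CPM in WT 1, WT 2 and WT 3.

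As ratios of WT 1 over WT 2, Hist1h1c was at 0.576, Hist1h1e at 0.315 and Hist1h1d at 0.226, while Hist1h1a and Hist1h1b were both at 0.037. The same genes did not split in the KO pair, where the KO 1 over KO 2 ratios of the 5 H1 genes ran from 0.169 to 0.256. As background, Hist1h1c and Hist1h1e encode H1.2 and H1.4, the H1 subtypes known from the widest range of tissues, also where cells rarely divide. H1 genes together made 26.5% and 27.6% of the summed histone CPM in KO 1 and KO 2, against 52.1%, 27.7% and 32.2% in WT 1, WT 2 and WT 3. The makeup of histone RNA in WT 1 thus stood apart, while in KO 1 the family shares were close to those of KO 2 at a sum 0.23 times as large. Hist1h1t, the testis H1, had 0 counts in KO 1 and WT 1 and at most 0.142 CPM elsewhere.

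Core histone H2A genes came next by role, H2A and H2B forming the dimers that flank the H3-H4 tetramer. Hist1h2ak was at 20.9 and 106 CPM in KO 1 and KO 2, against 7.0, 134 and 194 CPM in WT 1, WT 2 and WT 3. Hist2h2ac, from the chromosome 3 cluster, was at 26.4 and 105 CPM in KO 1 and KO 2, against 20.7, 98.4 and 110 CPM in WT 1, WT 2 and WT 3. Its low libraries, KO 1 and WT 1, were closer to each other than those of Hist1h2ak. Hist1h2ab was at 14.3 and 73.1 CPM in KO 1 and KO 2, against 3.59, 105 and 117 CPM in WT 1, WT 2 and WT 3. At the far end stood Hist1h2ah, with 2.12 and 14.4 CPM in KO 1 and KO 2, against 0.171, 15.9 and 22.1 CPM in WT 1, WT 2 and WT 3, and with 3 counts in WT 1. Hist1h2ah was named after its values were seen, as the member with the lowest WT 1 over WT 2 ratio.

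Hist3h2a, on chromosome 11, ran against most of the family. It was at 4.36 and 2.51 CPM in KO 1 and KO 2, against 12.0, 7.48 and 6.53 CPM in WT 1, WT 2 and WT 3. The libraries lowest for most H2A genes were here the highest within each genotype, and KO and WT levels did not overlap. Its neighbour Hist3h2ba, an H2B gene near the detection limit, was at 0.125 and 0.746 CPM in KO 1 and KO 2, against 0.455, 1.54 and 2.2 CPM in WT 1, WT 2 and WT 3, and kept to the order of most members within each genotype.

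For H2B, Hist1h2bb was at 24.5 and 134 CPM in KO 1 and KO 2, against 8.20, 183 and 180 CPM in WT 1, WT 2 and WT 3. Hist1h2be was at 31.6 and 130 CPM in KO 1 and KO 2, against 16.4, 148 and 133 CPM in WT 1, WT 2 and WT 3. Hist1h2bg was at 25.4 and 99.1 CPM in KO 1 and KO 2, against 19.1, 129 and 164 CPM in WT 1, WT 2 and WT 3. In each of these, WT 1 was lowest, KO 1 next, and KO 2 lay between KO 1 and the other WT libraries. Hist2h2be, an H2B gene on chromosome 3 whose human counterpart is known to make RNA with a poly(A) tail as well, was at 3.61 and 3.92 CPM in KO 1 and KO 2, against 8.59, 10.05 and 7.57 CPM in WT 1, WT 2 and WT 3. The libraries of a genotype were close for it, and the genotypes did not overlap. Hist1h2bc, which has a long RefSeq span of 8282 bp, was at 35.6 and 68.3 CPM in KO 1 and KO 2, against 29.7, 96.8 and 135 CPM in WT 1, WT 2 and WT 3, a smaller gap in the KO pair than for most members. It was named after its values were seen.

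H2A and H2B genes often lie head to head with a shared start region, and 9 such pairs had RefSeq starts 164 to 281 bp apart. In the Hist1h2ak and Hist1h2bn pair (164 bp apart) the KO 1 over KO 2 ratios were 0.197 and 0.326. In the Hist1h2ah and Hist1h2bk pair (178 bp apart) they were 0.147 and 0.157. Of members with a mean of at least 1 CPM, 54 of 55 had a ratio below 1. Low values in both genes are therefore not particular to pairs, and whether pairs vary together was not tested. Levels within a pair could be far apart. Hist1h2bk was at 12.1 and 76.8 CPM in KO 1 and KO 2, against 3.13, 90.3 and 95.9 CPM in WT 1, WT 2 and WT 3. All were several times those of Hist1h2ah, with RefSeq spans of 500 bp for Hist1h2bk and 522 bp for Hist1h2ah.

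H3, with H4 the core of the nucleosome and the carrier of most studied tail marks, had Hist1h3f as its most abundant gene, at 38.0 and 143 CPM in KO 1 and KO 2, against 9.22, 169 and 181 CPM in WT 1, WT 2 and WT 3. Hist1h3e was at 28.3 and 95.1 CPM in KO 1 and KO 2, against 15.0, 120 and 131 CPM in WT 1, WT 2 and WT 3. Hist1h3i was at 11.3 and 55.3 CPM in KO 1 and KO 2, against 3.59, 72.5 and 89.7 CPM in WT 1, WT 2 and WT 3. The H3 family had the lowest summed ratio of WT 1 over WT 2, 0.065, and made 6.28% of histone CPM in WT 1, where it made 14.0% in WT 2. Hist2h3c2, on chromosome 3, was at 0.623 and 0.981 CPM in KO 1 and KO 2, against 1.71, 1.97 and 1.70 CPM in WT 1, WT 2 and WT 3. It rested on 10 and 25 counts in KO 1 and KO 2, and its genotypes did not overlap.

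Among H4 genes, Hist1h4d was at 69.5 and 280 CPM in KO 1 and KO 2, against 36.1, 365 and 400 CPM in WT 1, WT 2 and WT 3. Hist1h4h was at 42.4 and 199 CPM in KO 1 and KO 2, against 35.1, 214 and 198 CPM in WT 1, WT 2 and WT 3. For Hist1h4h, KO 1 and WT 1 were close to each other, and KO 2 lay with WT 2 and WT 3. Hist1h4f was at 24.4 and 138 CPM in KO 1 and KO 2, against 12.2, 187 and 176 CPM in WT 1, WT 2 and WT 3. Hist1h4i was the member with its highest level in KO 2, at 17.8 and 65.1 CPM in KO 1 and KO 2, against 13.7, 46.5 and 63.7 CPM in WT 1, WT 2 and WT 3. Hist1h4m stood apart in another way, since WT 2 held 20.5 CPM (1054 counts) of it and the other libraries between 0.125 and 0.851 CPM, and it was named after these values were seen. H4 and other histone genes are near-identical copies, and no source used here says how reads matching several of them were counted, so the split of reads between single members is uncertain.

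The 10 members with a mean under 1 CPM included the testis genes Hist1h1t, Hist1h2aa and Hist1h2ba. The others were Hist1h2ao, Hist1h2ap, Hist1h2bq, Hist1h2br, Hist2h2aa1, Hist2h2aa2 and Hist2h3c1. None exceeded 1.71 CPM in any library. The start windows of Hist1h2bq and Hist1h2br were equal at 300 of 300 bases. Hist2h2aa1 and Hist2h3c1 had 0 counts in all 5 libraries, which allows up to 0.187 and 0.118 CPM in KO 1 and KO 2, against 0.171, 0.058 and 0.053 CPM in WT 1, WT 2 and WT 3 (3 counts per library, counting error only). Both lie on chromosome 3 beside the near copies Hist2h2aa2 and Hist2h3c2. How reads shared by such copies were counted is not stated. Low or 0 counts of a copied gene therefore do not show that it was silent, and the level of Hist2h3c2 has the same limit. One of the 3 pseudogenes, Hist1h2al, did not resemble the members. It was at 32.0 and 138 CPM in KO 1 and KO 2, against 67.4, 0.078 and 0.248 CPM in WT 1, WT 2 and WT 3. Rprl3, an RNase P RNA-like gene, showed the same split of libraries, at 16.3 and 44.3 CPM in KO 1 and KO 2, against 30.2, 0.039 and 0.036 CPM in WT 1, WT 2 and WT 3. In all, 3 genes of the table were over 20 times higher in KO 1, KO 2 and WT 1 than in WT 2 and WT 3, among genes over 2 CPM in KO 1. These genes, also chosen after their values were seen, set WT 1 with the KO libraries and apart from WT 2 and WT 3, which are also the 2 deepest libraries.

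The size of the gap within each genotype was set beside gene lists related to histone supply. From here on each value is a ratio of CPM between 2 libraries, with medians over genes of at least 1 CPM. For KO 1 over KO 2 the members had a median of 0.215, and 54 of 55 were below 1, whereas the median of all genes was 0.966. The median was 0.423 over 22 mitosis genes, 0.689 over 28 S phase genes (replication factors and cyclins), 0.815 over 19 histone chaperones and 0.860 over 18 genes of histone mRNA processing. Thus in the KO pair the histone genes had the lowest median of these lists.

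The WT pairs were ordered otherwise. For WT 1 over WT 2 the median was 0.066 over the members, with 54 of 55 below 1, against 0.031 over the mitosis list, 0.115 over the S phase list and 0.812 over all genes. WT 1 over WT 3 gave 0.066 over the members, 0.043 over the mitosis list, 0.128 over the S phase list and 0.850 over all genes. In WT 1 the mitosis list was therefore lower than the histones, and in KO 1 the histones were lower than the mitosis list. Between WT 2 and WT 3 the member median was 0.916, against 1.34 over the mitosis list, 1.04 over the S phase list and 1.03 over all genes. These are comparisons of single libraries, with no replicate check. The ratios of WT 1 over WT 2 and WT 3, unlike that of KO 1 over KO 2, cross the split of libraries that Hist1h2al and Rprl3 showed, and the part of that split in them was not tested.

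**Figure D3:**
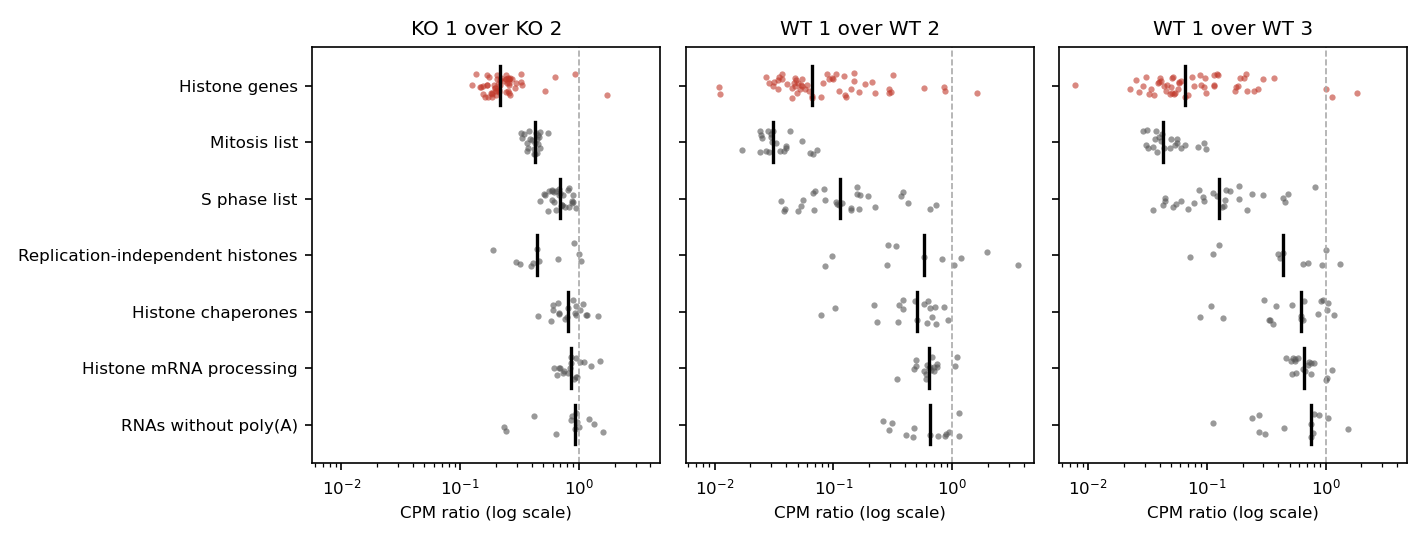
CPM ratio between 2 libraries of 1 genotype on a log axis, 1 point per gene whose mean reached 1 CPM and a black line at each list's median, for KO 1 over KO 2, WT 1 over WT 2 and WT 1 over WT 3. The histone median (red points) is below that of the S phase list in all 3 panels, and below that of the mitosis list for KO 1 over KO 2 only (0.215 and 0.423).

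Replication-independent histones, which are mostly made through the cell cycle from polyadenylated mRNAs, differed less between libraries as a sum, to which H3f3a and H3f3b gave the most. Their 11 genes in the table summed to 823 and 1202 CPM in KO 1 and KO 2, against 996, 1414 and 1494 CPM in WT 1, WT 2 and WT 3. H3f3b, an H3.3 gene, was at 228 and 341 CPM in KO 1 and KO 2, against 413, 347 and 577 CPM in WT 1, WT 2 and WT 3. H3f3a, the other H3.3 gene, was at 258 and 256 CPM in KO 1 and KO 2, against 217, 265 and 235 CPM in WT 1, WT 2 and WT 3. H2afz, which encodes H2A.Z, was at 81.8 and 201 CPM in KO 1 and KO 2, against 90.3, 268 and 218 CPM in WT 1, WT 2 and WT 3, with KO 1 and WT 1 low as for the members. H2afx, which encodes H2A.X, was at 32.5 and 110 CPM in KO 1 and KO 2, against 12.1, 142 and 108 CPM in WT 1, WT 2 and WT 3, and had the same 2 low libraries. Over the 11 genes the median KO 1 over KO 2 ratio was 0.444, close to that of the mitosis list, and the median WT 1 over WT 2 ratio was 0.585. H1f0, the linker histone known from cells that have left the cycle, was highest in WT 1: it was at 10.8 and 27.3 CPM in KO 1 and KO 2, against 82.8, 42.4 and 62.7 CPM in WT 1, WT 2 and WT 3. H2afx and H1f0 were named after their values were seen. No overlap between genotypes was seen for it, but the fitted log2 of -1.83 (SE 0.57) did not pass edgeR's test (adjusted p = 0.275).

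Genes of histone mRNA synthesis and processing differed less between libraries than the histone genes. Slbp, whose product binds the histone stem-loop, was at 59.7 and 71.4 CPM in KO 1 and KO 2, against 34.9, 74.0 and 68.2 CPM in WT 1, WT 2 and WT 3. Npat, which encodes the cyclin E-CDK2 target that activates histone transcription, was at 35.5 and 44.2 CPM in KO 1 and KO 2, against 29.1, 47.1 and 42.9 CPM in WT 1, WT 2 and WT 3. Both had their lowest level in WT 1. The U7 small nuclear RNA gene Rnu7, needed for the cut that ends histone mRNA, had 0 counts in every library, with the same upper limits as for Hist2h2aa1.

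RNAs without poly(A) tails served as the other check on library type. Summed over 17 such genes they were at 12091 and 13482 CPM in KO 1 and KO 2, against 16776, 16607 and 19055 CPM in WT 1, WT 2 and WT 3. Rmrp, the RNA of RNase MRP, was at 4193 and 3459 CPM in KO 1 and KO 2, against 3755, 4268 and 4821 CPM in WT 1, WT 2 and WT 3. Some small members of the list were low in KO 1, as Rny3, a Y RNA, at 9.09 and 37.7 CPM in KO 1 and KO 2, against 27.3, 57.3 and 61.6 CPM in WT 1, WT 2 and WT 3. Rn7sk, Rpph1 and Rmrp gave most of the sum. Over the 13 genes of the list with a mean of at least 1 CPM, the median KO 1 over KO 2 ratio was 0.934. The median was 0.652 for WT 1 over WT 2 and 0.751 for WT 1 over WT 3, with 11 of 13 genes below 1 in each. The part of this list in the histone values was not tested.

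**Figure D4:**
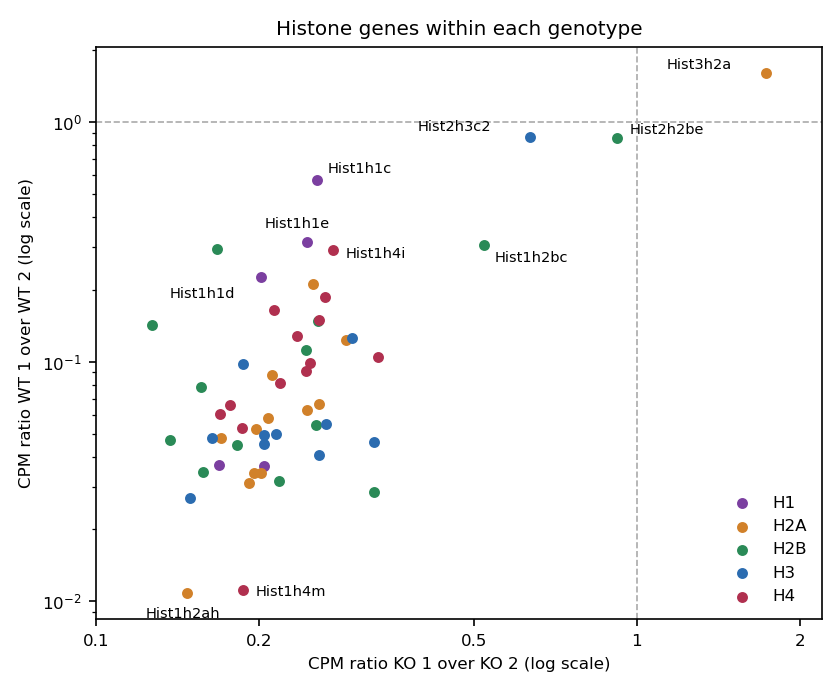
Each point is 1 of 55 histone genes, coloured by family, with the CPM ratio KO 1 over KO 2 on the x axis and WT 1 over WT 2 on the y axis, both on log scales, and dashed lines at 1. Most genes are low on both axes, Hist3h2a, Hist2h2be and Hist2h3c2 lie near or above 1 on at least 1 axis, and Hist1h1c, Hist1h1e and Hist1h1d are higher on the WT axis than Hist1h1a and Hist1h1b.

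Genes that were high in 1 pair tended to be high in the other, with Spearman's rho 0.51 and Pearson's r of the log2 ratios 0.68 across the 55 members, as descriptions of genes that share a class and a depth. Only 4 members held over 0.5 of their KO 2 level in KO 1, namely Hist3h2a, Hist1h2bc, Hist2h2be and Hist2h3c2. Likewise 4 held over 0.5 of their WT 2 level in WT 1, namely Hist1h1c, Hist3h2a, Hist2h2be and Hist2h3c2. Hist3h2a, Hist2h2be and Hist2h3c2 are in both sets. The 4 detected members with RefSeq spans over 1000 bp (Hist1h2bc, Hist1h2be, Hist1h2bp and Hist2h2be) had a median WT 1 over WT 2 ratio of 0.209, against 0.060 over the 51 shorter ones.

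The genotype comparison was fitted with edgeR's quasi-likelihood test on all 14851 genes that passed its filter on low counts, with Benjamini-Hochberg adjustment. Of all tested genes 2 were called at an adjusted p under 0.05 (0.0135%), and of the 56 tested members 0 were called. Hist2h2be had the smallest member p in edgeR's quasi-likelihood fit, with an adjusted p of 0.244. Without adjustment 2 of 56 members (3.57%) had p under 0.05 and were lower in KO, against 7.86% of all tested genes, and 0 were higher, against 5.95% of all tested genes. DESeq2 called 1 of 56 members with an adjusted p, Hist2h2be (adjusted p = 0.00216), which is 1.79%, against 7.71% of all genes. A member was filtered on counts in any 2 libraries, so the 9 untested members are those of lowest level.

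Fitted log2 values of KO over WT were negative for 55 of 56 tested members, with a median of -0.62, against -0.03 over all tested genes. The family medians were -0.69 for H1, -0.73 for H2A, -0.52 for H2B, -0.64 for H3 and -0.59 for H4. The direction depended on KO 1. Without KO 1 the median was 0.04 and 33 of 57 tested members were above 0, and without KO 2 it was -2.05 with 0 above 0. Without WT 1 the median was -1.15 with 0 above 0, and 4 of 56 members had an unadjusted p under 0.05, all lower in KO, against 6.82% of all tested genes. without WT 2 it was -0.34 with 9 above 0, and without WT 3 it was -0.24 with 10 above 0. With the replicate number as a block the median was 0.23, where WT 3, alone in its block, did not enter the genotype difference. No gene at all was called by edgeR in any of these fits. Mki67 had a fitted log2 of -0.01 (SE 1.16, adjusted p = 0.997), and -0.58 without WT 1.

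Apart from Hist1h1c and Hist1h1d, the 3 most abundant members of each family had standard errors larger than their fitted differences. In normalised CPM, which is CPM after TMM scaling, Hist1h4d averaged 170 ± 144 in KO (SD, n = 2) and 253 ± 182 in WT (SD, n = 3), with a fitted log2 of -0.59 (SE 1.01). Hist1h1c averaged 165 ± 138 in KO and 374 ± 139 in WT, with a fitted log2 of -1.19 (SE 0.65, edgeR adjusted p = 0.479). For Hist1h3f the fitted log2 was -0.37 (SE 1.14), for Hist1h2bb -0.60 (SE 1.25) and for Hist1h2ak -0.78 (SE 1.26). Hist1h4i, the tested member with a value above 0, averaged 40.3 ± 32.3 in KO and 39.8 ± 21.7 in WT (log2 0.01, SE 0.72).

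The 3 members with the smallest p had standard errors from 0.36 to 0.56. Hist2h2be averaged 3.67 ± 0.19 normalised CPM in KO (SD, n = 2) and 8.95 ± 1.70 in WT (SD, n = 3), with a fitted log2 of -1.29 (SE 0.36). Hist3h2a averaged 3.35 ± 1.30 in KO and 9.18 ± 4.57 in WT, with a fitted log2 of -1.46 (SE 0.56, edgeR adjusted p = 0.347). Hist2h3c2 averaged 0.781 ± 0.241 in KO and 1.83 ± 0.23 in WT, with a fitted log2 of -1.22 (SE 0.49, edgeR adjusted p = 0.366). They are also the 3 members (5.36% of 56) whose KO and WT libraries did not overlap, all lower in KO, against 17.4% of all tested genes lower without overlap. No member was higher in KO without overlap, against 17.8% of all tested genes. Leaving out any 1 library kept their fitted log2 between -1.90 and -0.94.

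**Figure D5:**
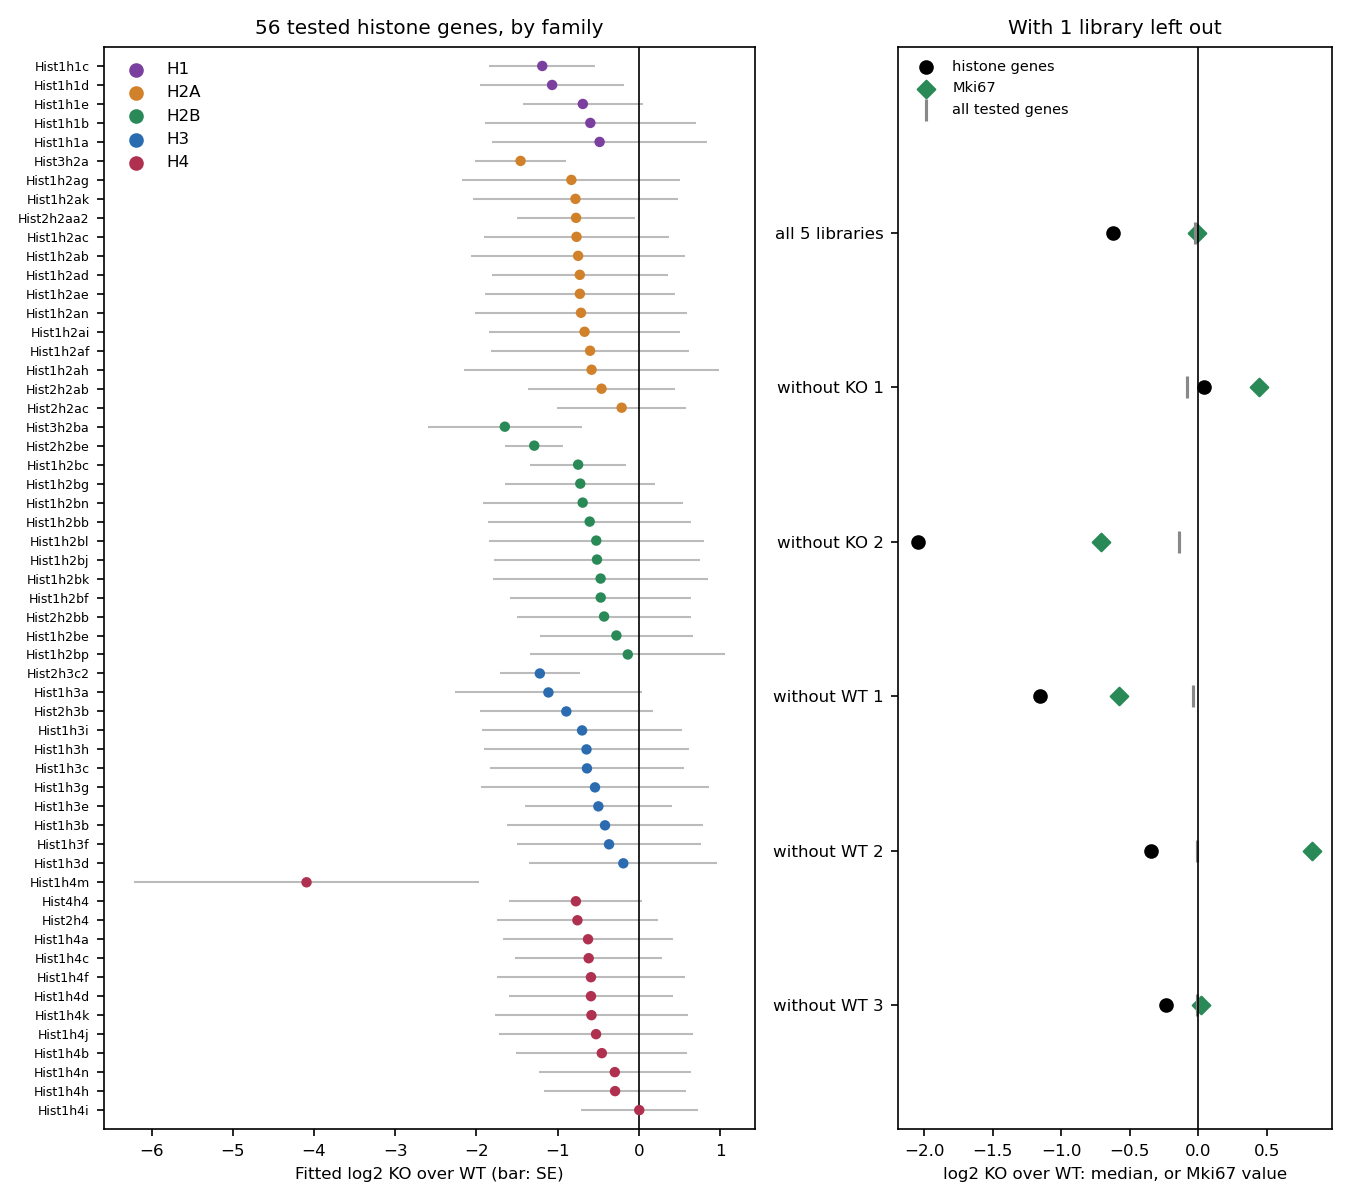
Left, fitted log2 of KO over WT with its standard error for the 56 tested histone genes by family; right, the median fitted log2 of the histone genes (circles), of all tested genes (grey ticks) and the Mki67 value (diamonds) with all 5 libraries and with each left out. All but Hist1h4i lie below 0 on the left, with bars that mostly cross 0, and the histone median moves from -2.05 without KO 2 to 0.04 without KO 1.

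Among the other lists, 0 of 28 S phase genes, 0 of 22 mitosis genes, 0 of 19 chaperone genes, 0 of 18 processing genes and 0 of 11 replication-independent histones were called by edgeR. The fitted medians were 0.30 for S phase genes, -0.07 for mitosis genes, 0.14 for chaperones, 0.10 for processing genes and -0.63 for replication-independent histones. RNAs without poly(A) tails had a fitted median of -0.62, like that of the members, with 11 of 16 below 0 and 0 called by edgeR. Their median was -0.57 without WT 1 and -0.38 without KO 1. Several of these medians turned sign with 1 library left out. Without WT 1 the S phase median was -0.16 (25 of 28 below 0), the mitosis median -0.64 (22 of 22 below 0) and the chaperone median -0.03. Without KO 1 the mitosis median was 0.44, with 22 of 22 above 0, and the S phase median was 0.52. The processing median stayed above 0 in both fits (0.03 without WT 1 and 0.21 without KO 1), and that of the replication-independent histones below 0 (-0.73 without WT 1 and -0.35 without KO 1). Unadjusted p was under 0.05 for 0 S phase genes, 0 mitosis genes, 1 chaperone, 1 processing gene and 2 replication-independent histones. DESeq2 called 0 S phase, mitosis and chaperone genes, 1 processing gene and 1 replication-independent histone.

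Markers of other cell types differed between these libraries, and their part in the histone values was not tested. The 12 macrophage markers summed to 19317 and 22263 CPM in KO 1 and KO 2, against 23165, 18529 and 15932 CPM in WT 1, WT 2 and WT 3. The 12 stromal markers summed to 25.4 and 16.5 CPM in KO 1 and KO 2, against 7.63, 8.0 and 5397 CPM in WT 1, WT 2 and WT 3, so WT 3 stood apart. The 10 granulocyte progenitor markers summed to 1.56 and 178 CPM in KO 1 and KO 2, against 129, 10.7 and 2.13 CPM in WT 1, WT 2 and WT 3. For these markers KO 1 was the lower KO library, as for the histone sums, while WT 1 was the highest WT library, unlike for them. The 8 B cell markers summed to 24.9 and 12.0 CPM in KO 1 and KO 2, against 0.911, 2.96 and 16.2 CPM in WT 1, WT 2 and WT 3. Erythroid markers stayed at or under 0.275 CPM in sum, and T and NK cell markers at or under 1.58 CPM.

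5hmC gave little at these genes. Of the 64 members with a position, 1 had any of the 9151 listed 5hmC peaks within its span, and 2 had one within 5 kb. It was a single peak (chr13:23620122-23620402, GRCm38), called in WT, that lies inside the long RefSeq span of Hist1h2be and near Hist1h1e. It held 4 and 2 counts in the 2 KO libraries, against 9 and 9 counts in the 2 WT libraries. The libraries held 46230 and 42489 counts in listed peaks in KO, against 42678 and 219116 in WT. Scaled to the same total, the peak was at 8.65 and 4.71 counts per 100000 in KO, against 21.1 and 4.11 counts per 100000 in WT. The 2 KO libraries were closer than sampling noise alone would make them (a chi-square of 0.575 for each degree of freedom). Both values are shown, but they are not taken as 2 independent samples. The groups overlapped on this scale, and no test was made on so few counts. The list is of chosen peaks, so a gene without one is not shown to lack 5hmC.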

How the data were processed

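The authors deposited raw whole-number counts, per gene for RNA (total RNA with ribosomal RNA removed, per the labels) and per peak for 5hmC. Per the submitters' processing notes STAR, BWA, HTSeq, MACS2, Trim Galore and CASAVA 1.4 were used on GRCm38. Their roles, the strand setting and the handling of reads that match several genes were not stated in the sources used here. The labels also name a TruSeq RNA kit.

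Groups and replicate numbers came from the labels. Symbols and positions came from the supplied name tables (47224 of 47731 genes named). Pseudogenes were Hist3h2bb-ps by name and Hist1h2aj and Hist1h2al by RefSeq biotype. CPM used counts in genes. The 5 RNA libraries were fitted over all genes with edgeR 4.0.16 (glmQLFit, glmQLFTest, TMM, filterByExpr, two-sided, Benjamini-Hochberg, threshold 0.05) in R 4.3.3, and the steps were tested on simulated data. Sums, shares and ratios are descriptions without a test. Genes named are the 3 most abundant of each family, those called, up to 3 with the smallest p in each direction, and Mki67; others say that they were chosen after their values were seen or stand for a family, pair or list. Members and lists were chosen with earlier results of these data known. Alternatives were DESeq2 1.42.0, limma-voom (limma 3.58.1), RLE and total-count scaling, other filters, a replicate block, a threshold of 0.1 and fits without each library. Depth runs from 16053426 to 56394358 counts, and limits for 0 counts cover counting error only.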

Additional observations from a re-analysis of the deposited data

How the results depend on the processing

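The count of 0 members called by edgeR held under RLE and total-count scaling, limma-voom, other filters, an adjusted p of 0.1, the replicate block and each left-out library, while DESeq2 called 1. The median fitted log2 (-0.62) ran from -0.69 to -0.42 under other scalings, filters and tools. It ran from -2.05 to 0.04 with 1 library left out, and the replicate block gave 0.23. For the named genes and Mki67, 204 of 240 alternative values kept their direction and side of the threshold, 35 turned sign and 1 passed the threshold (Hist2h2be under DESeq2).

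With 2 shared replicate numbers, the labels do not pair libraries, and the deviations of same-numbered libraries correlated at 0.12 for number 1 and -0.04 for number 2. With 2 KO libraries the deviations of KO 1 and KO 2 are mirror images. WT 1 thus correlated at 0.12 with KO 1 and -0.12 with KO 2, and such values cannot show whether libraries are paired. With the replicate block the log2 was 0.47 for Hist1h2ak, 0.094 for Hist2h2ac, 0.56 for Hist1h2ab, 0.42 for Hist1h2bb, 0.25 for Hist1h2be, 0.76 for Hist1h3f, 0.16 for Hist1h3e, 0.47 for Hist1h3i, 0.15 for Hist1h4d, 0.15 for Hist1h4f and 1.29 for Mki67, and it changed no call. Under limma-voom Hist1h3f was at 0.11, Hist1h4i at -0.10 and Mki67 at 1.05. Hist1h4i was at -0.0041 under total-count scaling and -0.031 without a filter, and Mki67 at 0.0037 under RLE scaling. WT 3 was alone in its replicate block and did not enter the genotype difference of the block fit. That difference came from KO 1 against WT 1 and KO 2 against WT 2. The cause of the sign changes in the other settings was not tested.

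With 1 library left out, the log2 ran from -1.52 to 0.45 for Hist2h2ac, -2.30 to 0.14 for Hist1h2bb, -1.63 to 0.39 for Hist1h2be, -1.62 to 0.27 for Hist1h3f, -1.62 to 0.11 for Hist1h3e, -2.26 to 0.011 for Hist1h3i, -1.92 to 0.073 for Hist1h4d, -1.80 to 0.42 for Hist1h4h, -2.32 to 0.16 for Hist1h4f, -1.21 to 0.64 for Hist1h4i and -0.71 to 0.83 for Mki67. It stayed below 0 for Hist1h1c, Hist1h1e, Hist1h1d, Hist1h2ak, Hist1h2ab, Hist1h2bg, Hist2h2be, Hist3h2a and Hist2h3c2. Such fits leave 1 KO library in places, which is then assumed to vary like the WT libraries. The log2 ratio of mean summed histone CPM, KO over WT, was -0.66, and from -2.08 to 0.04 with 1 library left out; adding the 3 pseudogenes gave -0.62 and core histones alone -0.58, both chosen after seeing the data.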
